A study of Homo sapiens with 5 samples.

Results

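Genes of the ubiquitin conjugation and deconjugation machinery were examined in ribosome profiling of HCT116 cells, a human colorectal carcinoma line. They were chosen by symbol: every gene of the count table named as a ubiquitin-conjugating (E2) enzyme (UBE2) or as a deubiquitinase of the USP, OTUB or OTUD, or UCHL type, except USP9Y. That gave 101 of 17297 genes, 36 with an E2 symbol and 65 with a deubiquitinase (DUB) symbol, of which 52 were USP, 10 OTU and 3 UCHL genes. USP6NL is in the set by its symbol but encodes a RAB GTPase-activating protein, not a deubiquitinase, and UBE2V1P16 carries the symbol of a UBE2V1 pseudogene.

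Ubiquitin is passed from an E1 activating enzyme to an E2 enzyme, and from there, with an E3 ligase, to a target protein. The E2 largely sets which kind of chain is built. Some E2s carry ubiquitin-like proteins such as SUMO, NEDD8 or ISG15 in its place. Deubiquitinases remove or trim the chains and return ubiquitin to the free pool. In dividing cells this machinery times the loss of mitotic regulators, repairs DNA, marks histones and clears misfolded or unassembled proteins.

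Ribosome profiling counts mRNA pieces protected from nuclease digestion by a ribosome, here from the fraction of single 80S ribosomes. The WT group held 2 libraries of unedited HCT116 cells. The MUT group held 3 libraries of HCT116 clones made homozygous by CRISPR/Cas9 for N106S in eIF6, a factor that binds the large ribosomal subunit and keeps it from joining the small one. By its title, the series asks how targeting eIF6 affects ribosomal subunits, the exit from mitosis and cancer growth. The labels do not say which clone a library came from or whether libraries of a group were separate cultures, so p-values reflect variation among these 5 libraries alone, and that variation may be technical.

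Libraries held 2095217 and 3128144 counts in WT and 3076137 to 3821176 in MUT. Of the 10 epithelial markers, all but VIL1 had footprints in every library, with a summed level of 1140 to 1230 CPM (CPM, a count divided by the TMM-scaled size of its library, times 1e6) in WT and 1190 to 1500 CPM in MUT. Within that list KRT8 and KRT19 rose and EPCAM, CDH1 and CLDN7 fell. Summed blood cell markers reached 2.29 to 4.99 CPM in WT and 5.41 to 8.72 CPM in MUT, mostly from CD68, and fibroblast and endothelial markers 7.11 to 13.0 CPM in any library. Their part in the results was not tested.

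Of the 101 genes, 90 had enough counts to be tested, 33 E2 and 57 DUB genes. The other 11 had at most 6 counts in any library. They were UBE2QL1, UBE2U, UBE2V1P16, OTUD6A, UCHL1, USP17L2, USP26, USP29, USP44, USP50 and USP51. UCHL1, a neuronal deubiquitinase found in some tumours, had 0 counts in both WT libraries and 2, 1 and 1 in MUT.

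Footprints on E2 genes shifted down more often than up, while DUB genes went both ways. With edgeR's quasi-likelihood test at an adjusted p under 0.05 over all genes, 15 of the 90 fell in MUT and 5 rose, against 22.9% of all 11991 tested genes called (10.0% higher and 12.9% lower). Among the 33 E2 genes 9 fell (27.3%) and 1 rose, with a median log2 fold change of -0.12. Among the 57 DUB genes 6 fell (10.5%) and 4 rose, shares near or below those of all genes, and their median was -0.01 (5 of 56 fell without USP6NL). The median of all tested genes was 0.00. Other scalings moved all genes alike: by upper quartile the medians were 0.05 for all tested genes, -0.07 for E2 genes and 0.04 for DUB genes, and by library size only they were 0.07, -0.04 and 0.06.

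Level bears on these shares. E2 genes had a median of 155 CPM and DUB genes of 93.7 CPM, where all tested genes had 48.5 CPM. Of all genes with a mean of at least 100 CPM 9.06% rose and 24.8% fell, where 10.0% and 12.9% of all tested genes did. The Spearman correlation of mean CPM with log2 fold change was -0.23 over 11857 tested genes. It was -0.39 over the E2 genes and -0.04 over the DUB genes. Among the genes with a mean of at least 100 CPM, 8 of 21 E2 genes fell (38.1%), against 24.8% of all 3144 such genes and 4 of 28 DUB genes (14.3%). The median log2 fold change at that level was -0.15 for E2 genes, -0.07 for DUB genes and -0.10 for all genes. No test of the E2 genes as a set was made. All MUT libraries lay below both WT libraries for 32 of the 90 genes and above them for 21, where 25.3% and 25.4% of all tested genes did so. Genes past the threshold were chosen for a difference between these same libraries, so a lack of overlap in them is no further support.

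**Figure D1:**
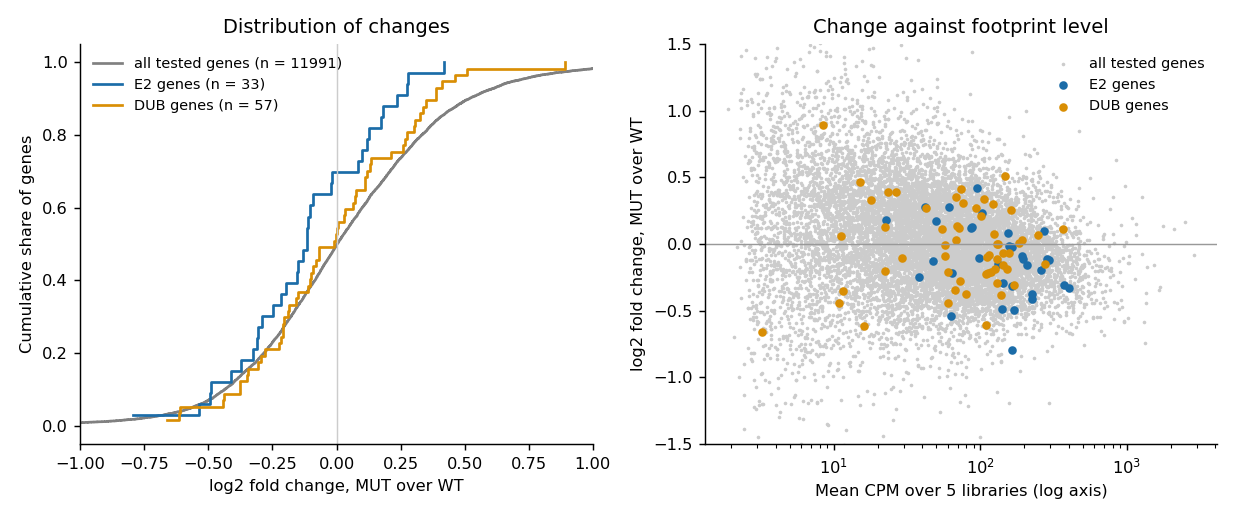
Left: cumulative share of genes (y) at or below a log2 fold change of MUT over WT (x) for all 11991 tested genes, the 33 E2 genes and the 57 DUB genes. Right: log2 fold change (y) against mean CPM over the 5 libraries (x, log axis), with points outside -1.5 to 1.5 not drawn. The E2 curve lies left of the other curves around its median of -0.12, while the DUB curve crosses 0 near its middle, with a median of -0.01.

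How many genes were called depended on scaling and on single libraries. The 5 higher and 15 lower genes became 9 and 14 under upper-quartile scaling, and 10 and 9 when only library size was used. DESeq2 called 2 higher and 10 lower. The calls over all genes moved in the same direction, from 1203 higher and 1544 lower to 1558 and 1209, 1756 and 1040, and 610 and 953 under these 3 settings. Without MUT replicate 1 there were 3 higher and 9 lower members, and over all genes 721 higher and 908 lower. Without WT replicate 1 or WT replicate 2, the median log2 fold change of the members was -0.10 or -0.02, against -0.09 in the main fit. Without MUT replicate 3 there were 8 higher and 11 lower members, and over all genes 1089 higher and 1339 lower. UBE2H, UBE2V2, USP53 and USP5 kept their calls in all 16 alternative fits.

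**Figure D2:**
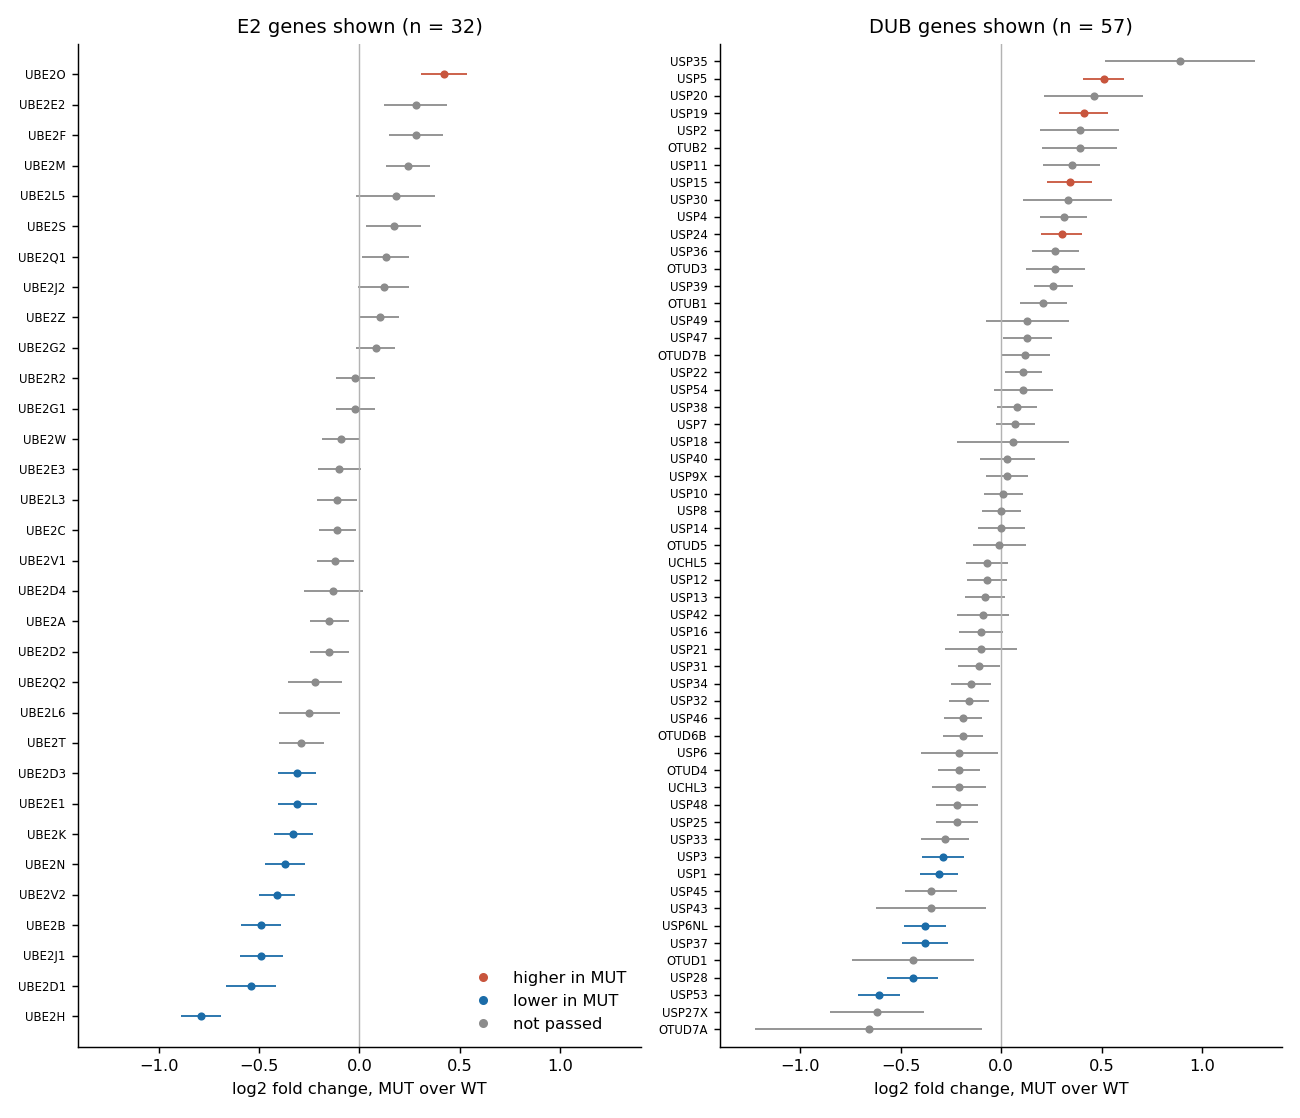
Log2 fold change of MUT over WT (x) with its standard error (bar) for the tested E2 genes, less 1 that is not shown, and the 57 tested DUB genes, one row per gene in order of change. Coloured points are the genes past the threshold: 9 lower and 1 higher among E2 genes, with UBE2H at -0.79 and UBE2O at 0.42 at the ends, and 6 lower and 4 higher among DUB genes. The widest bars belong to genes with few counts such as OTUD7A.

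UBE2H showed the largest fall of any tested member. It encodes the E2 that works with the CTLH (GID-type) ubiquitin ligase. Its bounds in GRCh38.p14 are 129830732 and 129952960 on chromosome 7. UBE2H had 219 and 222 CPM in the WT libraries and 113, 141 and 127 CPM in the MUT libraries, so that the highest MUT value lay well below both WT values. Its mean went from 221 ± 1.95 CPM (SD, n = 2) to 127 ± 13.8 CPM (SD, n = 3), 1.73-fold lower, with a log2 fold change of -0.79 (SE 0.0995) and an edgeR adjusted p of 7.03e-06. Over the 16 alternatives its log2 fold change ran from -0.87 to -0.72.

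The E2s that act with many ligases, the UBE2D and UBE2E enzymes, included 3 that fell among 7, with a median log2 fold change of -0.15. Of all tested genes 12.9% fell, and of those with a mean of at least 100 CPM 24.8%. UBE2D1 had 75.9 and 78.5 CPM in WT and 56.0, 47.4 and 56.7 CPM in MUT, 1.45-fold lower (edgeR adjusted p 0.00347). UBE2D3 had 443 and 396 CPM in WT and 328, 356 and 332 CPM in MUT, 1.24-fold lower (0.0211). UBE2E1, which also takes part in histone H2A ubiquitination, had 173 and 198 CPM in WT and 142, 151 and 158 CPM in MUT, 1.24-fold lower (0.0232). In each of these genes every MUT library lay below both WT libraries, which held for 25.3% of all tested genes. UBE2D2, UBE2D4 and UBE2E3 had log2 fold changes of -0.15, -0.13 and -0.10 and UBE2E2 of 0.28, none past the threshold.

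Of those 3 calls, that of UBE2D1 was lost without WT replicate 2 (adjusted p 0.0667). That of UBE2D3 was lost without WT replicate 1 (0.127), MUT replicate 1 (0.111) or MUT replicate 3 (0.0591), with library size only (0.0631) and with counts thinned to the smallest library (0.0853). That of UBE2E1 was lost without WT replicate 2 (0.314) or MUT replicate 1 (0.117), in DESeq2 (0.0698), with library size only (0.0781) and with thinned counts (0.0785). The UBE2D genes are close copies of each other with processed pseudogenes, and the sources used here do not say how reads that map to several places were counted, so their single values are uncertain.

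E2s of DNA repair and chromatin had 3 falls among 7 genes, and all 7 had log2 fold changes below 0, with a median of -0.29. The median level of these genes was 193 CPM. Of all tested genes with a mean of at least 100 CPM, 24.8% fell, and their median log2 fold change was -0.10. The list was chosen with earlier results known, and it was not tested as a set. UBE2B (RAD6B), which modifies PCNA and histone H2B, had 160 and 181 CPM in WT and 128, 126 and 113 CPM in MUT, 1.4-fold lower (edgeR adjusted p 0.00109). UBE2N, which builds lysine-63 chains, had 288 and 237 CPM in WT and 212, 196 and 196 CPM in MUT, 1.3-fold lower (0.00791). UBE2V2 (MMS2), a partner of UBE2N that lacks the catalytic cysteine, had 257 and 276 CPM in WT and 198, 200 and 204 CPM in MUT, 1.33-fold lower (0.00221). Both subunits of the UBE2N-UBE2V2 enzyme were lower in every MUT library than in either WT library, which held for 25.3% of all tested genes.

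The other 4 genes of that group did not pass. UBE2T, the E2 of the Fanconi anaemia pathway, came closest, with 150 and 169 CPM in WT and 146, 139 and 109 CPM in MUT (log2 fold change -0.29, edgeR adjusted p 0.0613). UBE2V1, the other partner of UBE2N, had a log2 fold change of -0.12, UBE2A, the close copy of UBE2B, of -0.15, and UBE2W of -0.09. The UBE2B call was lost without WT replicate 2 (adjusted p 0.0597) and that of UBE2N without WT replicate 1 (0.133), while UBE2V2 stayed at or below 0.0467.

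At the endoplasmic reticulum, where misfolded proteins are tagged and exported for degradation, 1 of 4 E2s fell, against 12.9% of all tested genes. The median level of these 4 genes was 157 CPM, and of all tested genes with a mean of at least 100 CPM 24.8% fell. UBE2J1, a membrane-anchored E2, had 232 and 181 CPM in WT and 139, 138 and 159 CPM in MUT, 1.41-fold lower (edgeR adjusted p 0.00185). WT replicate 1 stood above WT replicate 2, and without WT replicate 1 the call was lost (0.0728). The related UBE2J2, also membrane-anchored, had 87.4 and 77.2 CPM in WT and 84.3, 79.0 and 103 CPM in MUT, and did not pass. UBE2G1 and UBE2G2, the remaining E2s of this pathway, had log2 fold changes of -0.02 and 0.08, neither past the threshold.

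Chain-building and other ubiquitin E2s went both ways, with 2 falls (UBE2H, above, and UBE2K) and 1 rise among 7. Of all tested genes 12.9% fell and 10.0% rose. The median level of the 7 was 164 CPM, and of all tested genes with a mean of at least 100 CPM 24.8% fell and 9.06% rose. UBE2K, which extends lysine-48 chains that mark proteins for the proteasome, had 453 and 462 CPM in WT and 342, 348 and 404 CPM in MUT, 1.25-fold lower (edgeR adjusted p 0.0170). UBE2O, a large enzyme that combines E2 and E3 activity and clears unassembled ribosomal proteins, had 74.4 and 84.0 CPM in WT and 102, 116 and 102 CPM in MUT, 1.34-fold higher (0.00942). It was the single E2 gene that passed on the rising side. UBE2L3, UBE2R2, UBE2Q1 and UBE2Q2 lay between -0.22 and 0.13 and did not pass.

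The UBE2K call was lost without WT replicate 2 (adjusted p 0.0959), MUT replicate 1 (0.121) or MUT replicate 2 (0.0631) and with library size only (0.0525). The UBE2O call was lost without WT replicate 1 (0.105). UBE2K and UBE2D3 had the highest mean CPM of the 101 genes, 402 and 371, followed by USP22 (370), UBE2V1 (294) and UBE2L3 (284). CPM is not divided by gene length, so this order is not one of ribosome density.

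The 2 E2s that build and extend chains with the anaphase-promoting complex, the ligase that ends mitosis, did not pass. UBE2C, which starts the chains, had 208 and 201 CPM in WT and 190, 186 and 191 CPM in MUT (log2 fold change -0.11, edgeR adjusted p 0.393). UBE2S, which extends them, had 44.9 and 48.1 CPM in WT and 53.8, 49.5 and 54.7 CPM in MUT (0.17, adjusted p 0.384). The libraries of UBE2C lay lower in MUT and those of UBE2S higher, each without overlap, by differences close to their standard errors of 0.0917 and 0.136. UBE2D1, which can also start chains for this complex, is described above.

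Of the 5 E2s that carry ubiquitin-like proteins, 0 passed in edgeR or DESeq2, although 3 had an unadjusted p under 0.05 in edgeR. Such a p was also found for 12 higher and 22 lower genes among all 90 tested members, these 3 included. The NEDD8 enzymes UBE2M and UBE2F had log2 fold changes of 0.24 and 0.28 (edgeR adjusted p 0.121 and 0.138). UBE2L6, the E2 of the interferon-induced ISG15, had -0.25 and UBE2Z, which takes ubiquitin from UBA6, 0.10, neither past the threshold.

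**Figure D3:**
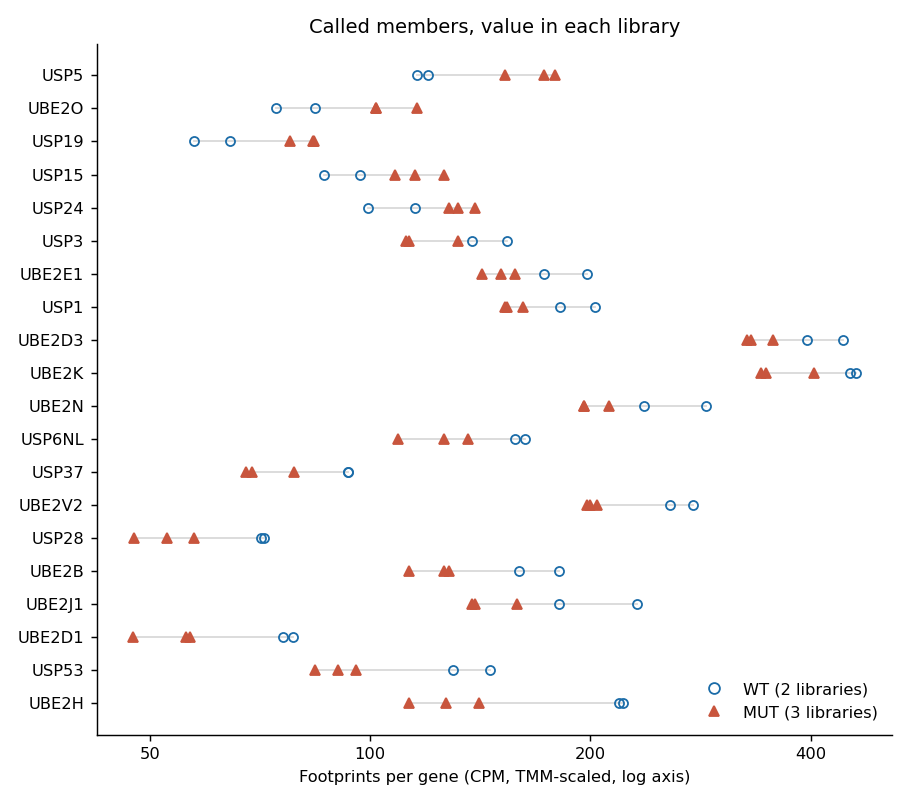
Footprints per gene in CPM (x, log axis) in each WT library (open circles) and MUT library (filled triangles) for the 20 genes past the threshold, ordered by log2 fold change. In each of the 20 rows the WT and MUT symbols do not overlap. The genes were chosen for a difference between these same libraries, and 50.7% of all tested genes do not overlap. UBE2H is at the bottom (219 and 222 CPM against 113 to 141 CPM). USP5 is at the top (116 and 120 CPM against 153 to 179 CPM).

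Among deubiquitinases, USP5 showed the largest rise past the threshold. USP5 (isopeptidase T) takes apart free ubiquitin chains and so refills the pool of single ubiquitin. It lies on chromosome 12 at 6852150 to 6866632 (GRCh38.p14). USP5 had 116 and 120 CPM in WT and 173, 179 and 153 CPM in MUT, with all MUT values above both WT values. The mean went from 118 ± 2.92 CPM (SD, n = 2) to 168 ± 13.5 CPM (SD, n = 3), 1.42-fold higher, with a log2 fold change of 0.51 (SE 0.103) and an edgeR adjusted p of 0.00106. Its log2 fold change ran from 0.46 to 0.58 over the alternatives, and every adjusted p stayed at or below 0.0197.

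USP13, the closest relative of USP5, did not move with it. It had 114 and 121 CPM in WT and 113, 115 and 107 CPM in MUT (log2 fold change -0.08, edgeR adjusted p 0.612). The ratio of USP5 to USP13 was 0.03 and -0.01 on the log2 scale in WT and 0.62, 0.64 and 0.52 in MUT, a difference of 0.58. An exact two-sided permutation test of that ratio gave p = 0.1, the smallest that 2 against 3 libraries can give. The other proteasome-bound or chain-recycling deubiquitinases, USP14 and UCHL5, had log2 fold changes of -0.00 and -0.07, neither past the threshold.

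The promoters of USP5 and USP13, this diverging pair, are shown from the RefSeq table for GRCh38.p14, 250 bases upstream of the gene's first base on the plus strand, at chr12:6851900-6852149 for USP5 and chr3:179652790-179653039 for USP13. Capitals mark matches on either strand to CCAAT, the motif of NF-Y, which reads ATTGG on the opposite strand. They also mark GGGCGG, the motif of SP1, which reads CCGCCC there, and no matches overlap.
USP5: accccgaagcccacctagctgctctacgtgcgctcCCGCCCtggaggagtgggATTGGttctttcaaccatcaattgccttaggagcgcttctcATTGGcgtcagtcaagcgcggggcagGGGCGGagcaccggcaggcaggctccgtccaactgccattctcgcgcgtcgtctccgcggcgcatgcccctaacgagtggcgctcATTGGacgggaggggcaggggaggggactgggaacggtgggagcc
USP13: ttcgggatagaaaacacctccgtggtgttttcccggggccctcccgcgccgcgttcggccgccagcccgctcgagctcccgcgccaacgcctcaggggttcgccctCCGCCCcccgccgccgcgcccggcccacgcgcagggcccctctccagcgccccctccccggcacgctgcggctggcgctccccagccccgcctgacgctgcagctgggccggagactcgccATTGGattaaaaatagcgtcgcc
USP5 held 3 CCAAT and 2 GGGCGG matches, and USP13 held 1 of each. Of the 27305 promoters in the RefSeq set, 33% held CCAAT and 42.3% held GGGCGG in the same window, so both matches are common. Among the promoters of tested genes the shares were 35.7% and 69.1%. The USP5 window was 66% and the USP13 window 74.4% G and C. A match is a description of letters, not of binding.

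Promoter windows were found for 79 of the 101 genes. GGGCGG was present in 78.5% of these and in 69.1% of the windows of tested genes, and CCAAT in 30.4% and 35.7%. A transcript start with C followed by 4 pyrimidines is the form of the terminal oligopyrimidine (TOP) motif that ribosomal protein mRNAs share. It was found at the annotated start of 2 of the 79 genes, USP3 and USP46. The share was 4.04% of all promoters and 5.45% of those of tested genes. USP3 fell and USP46 (log2 fold change -0.19) did not pass.

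The other DUB genes that rose did so by less. USP19, an ER-anchored deubiquitinase, had 57.4 and 64.4 CPM in WT and 83.7, 83.5 and 77.7 CPM in MUT, 1.33-fold higher (edgeR adjusted p 0.0159). USP15, which acts in growth factor and innate immune signalling, had 86.4 and 96.8 CPM in WT and 108, 126 and 115 CPM in MUT, 1.26-fold higher (0.0289). USP24, among the largest deubiquitinases, had 99.4 and 115 CPM in WT and 132, 139 and 128 CPM in MUT, 1.23-fold higher (0.0355). All MUT libraries of these 3 genes lay above both WT libraries, which held for 25.4% of all tested genes.

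These 3 calls were lost in DESeq2 (adjusted p 0.0655 for USP19, 0.0980 for USP15 and 0.113 for USP24). They were also lost without WT replicate 1 (0.127, 0.198 and 0.259). USP19 and USP15 lost theirs without WT replicate 2 (0.0515 and 0.0680), USP19 and USP24 without MUT replicate 1 (0.0619 and 0.0911), and USP15 and USP24 without MUT replicate 2 (0.110 and 0.0973). USP15 also lost its call with thinned counts (0.0979).

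USP15 has 2 close relatives, USP4 and USP11, and the 3 genes had similar values. USP4 had 69.4 and 64.1 CPM in WT and 84.0, 85.3 and 77.5 CPM in MUT (log2 fold change 0.31, edgeR adjusted p 0.0626). USP11 had 56.4 and 59.8 CPM in WT and 74.4, 87.2 and 61.6 CPM in MUT (0.35, adjusted p 0.0735). Neither passed. In both genes, as in USP15 (0.34), every MUT library was above both WT libraries, which held for 25.4% of all tested genes. The log2 ratios within the trio differed between the groups by -0.04 (USP4 to USP11), -0.04 (USP4 to USP15) and 0.00 (USP11 to USP15), with overlapping libraries. USP4 passed with upper-quartile scaling and in 5 other alternatives, and USP11 in 5.

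USP53 had the largest fall of the DUB genes past the threshold. USP53 is tied to tight junctions and was long classed as inactive. It lies on chromosome 4 at 119212601 to 119295518 (GRCh38.p14). USP53 had 146 and 130 CPM in WT and 90.3, 84.0 and 95.5 CPM in MUT, so that every MUT library was below both WT libraries. The mean went from 138 ± 11.1 CPM (SD, n = 2) to 89.9 ± 5.74 CPM (SD, n = 3), 1.53-fold lower, with a log2 fold change of -0.61 (SE 0.105) and an edgeR adjusted p of 2.19e-04. Over the alternatives it lay between -0.69 and -0.54.

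Its relative USP54 had 49.4 and 54.9 CPM in WT and 54.1, 67.7 and 48.2 CPM in MUT (log2 fold change 0.11), and did not pass. The log2 ratio of USP53 to USP54 went from a mean of 1.40 in WT to 0.68 in MUT (exact permutation p = 0.2). USP39, a splicing factor that lacks the active-site cysteine and was listed with these 2 genes, had 143 and 148 CPM in WT and 179, 181 and 163 CPM in MUT. Its log2 fold change of 0.26 missed the threshold narrowly (edgeR adjusted p 0.0567) and passed in 7 of the 16 alternatives.

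Deubiquitinases of the DNA damage and p53 pathways had 3 falls among 8 genes, with a median level of 120 CPM. Their median log2 fold change was -0.11, and 4 of the 8 were above 0. Of all tested genes with a mean of at least 100 CPM, 24.8% fell, and their median was -0.10. USP28, which steadies p53 and MYC and takes part in the arrest that follows a prolonged mitosis, had 70.9 and 71.6 CPM in WT and 52.8, 57.4 and 47.5 CPM in MUT, 1.36-fold lower (edgeR adjusted p 0.0145). USP1, which removes ubiquitin from FANCD2 and PCNA, had 182 and 203 CPM in WT and 154, 153 and 162 CPM in MUT, 1.24-fold lower (0.0218). USP3, which acts on histones H2A and H2B, had 138 and 154 CPM in WT and 113, 132 and 112 CPM in MUT, 1.23-fold lower (0.0420). None of the 3 groups of MUT values reached a WT value, which held for 25.3% of all tested genes.

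USP7, the deubiquitinase of MDM2 and p53, had 233 and 246 CPM in WT and 269, 255 and 232 CPM in MUT (log2 fold change 0.07) and did not pass. USP10 (0.01), USP47 (0.13), USP48 (-0.22) and USP11 did not pass either. DESeq2 called none of the 8 (adjusted p 0.0663 for USP28, 0.0638 for USP1 and 0.134 for USP3). In edgeR 5 of the 8 had an unadjusted p under 0.05, as had 12 higher and 22 lower genes among the 90 tested members. The share of all tested genes at that cutoff was not counted.

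Over the alternatives the log2 fold change ran from -0.51 to -0.37 for USP28, from -0.38 to -0.21 for USP1 and from -0.37 to -0.19 for USP3. Over all genes, too, fewer were called without MUT replicate 1, 721 higher and 908 lower against 1203 and 1544 in the main fit. Each of the 3 genes lost its call in some fits with 1 library less, given here with the edgeR adjusted p of the call. For USP28 it was lost without WT replicate 1 (0.0585), WT replicate 2 (0.121), MUT replicate 1 (0.0513) or MUT replicate 3 (0.0519). USP1 lost it without WT replicate 2 (0.257), MUT replicate 1 (0.0883) or MUT replicate 2 (0.0613), and with library size only (0.0765). USP3 lost it without WT replicate 1 (0.0541), WT replicate 2 (0.374), MUT replicate 1 (0.155) or MUT replicate 3 (0.112), and in 10 of the 16 alternatives in all.

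Further falls were on USP37 and USP6NL. USP37, which steadies cyclin A at the start of S phase, had 93.4 and 93.2 CPM in WT and 69.0, 78.7 and 67.7 CPM in MUT, 1.3-fold lower (edgeR adjusted p 0.0203). USP6NL, the RAB GTPase-activating protein named above, had 158 and 163 CPM in WT and 126, 109 and 136 CPM in MUT, 1.3-fold lower (0.0101). The WT libraries of each lay close together and above all MUT libraries. USP37 lost its call in DESeq2 (0.0802), with library size only (0.0579), with thinned counts (0.0736) and without WT replicate 1 (0.0782), WT replicate 2 (0.131), MUT replicate 1 (0.0813) or MUT replicate 3 (0.0573). USP6NL lost its call without WT replicate 2 (0.119) or MUT replicate 2 (0.0624).

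Histone and SAGA deubiquitinases held no call other than that of USP3 among 6 tested. USP22, the catalytic subunit of the SAGA deubiquitinase module, had 353 and 352 CPM in WT and 380, 391 and 372 CPM in MUT, a small shift without overlap (log2 fold change 0.11, edgeR adjusted p 0.407). USP27X, which can replace USP22 in that module, had 21.5 and 19.0 CPM in WT and 16.2, 12.4 and 11.0 CPM in MUT. Its log2 fold change of -0.62 (SE 0.235) was of the size of that of USP53 but rested on 43 to 58 counts a library, and it did not pass (adjusted p 0.0600). USP16, USP21 and USP49 had values of -0.10, -0.10 and 0.13 and did not pass.

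The partners of WDR48, an activating subunit, are USP1, USP12 and USP46. Next to the fall of USP1, USP12 had a log2 fold change of -0.07 and USP46 of -0.19 (edgeR adjusted p 0.663 and 0.163). Of the endosome, membrane and organelle deubiquitinases, USP19 was the single one of 8 past the threshold. USP8, which sorts receptors at endosomes, had 134 and 130 CPM in WT and 126, 137 and 132 CPM in MUT, with a log2 fold change of 0.00. USP20 and USP33, a pair that share substrates, leaned apart, with log2 fold changes of 0.46 (SE 0.246) and -0.28 (SE 0.120), neither past the threshold. USP30, which limits mitophagy, had 0.33 and USP2 0.39, neither past the threshold. USP6 and USP32 share long stretches of sequence, so their counts are uncertain (-0.21 and -0.16, not passed).

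Among the largest deubiquitinases, USP34 had 286 and 303 CPM in WT and 236, 283 and 278 CPM in MUT (log2 fold change -0.15) and USP9X 164 and 212 CPM in WT and 184, 206 and 192 CPM in MUT (0.03). Neither passed, and USP24, above, rose. USP9X has a close copy on the Y chromosome, so reads of the 2 genes may be mixed. The nucleolar deubiquitinase USP36, which acts in ribosome production, had 85.4 and 81.7 CPM in WT and 87.2, 108 and 106 CPM in MUT (0.27, edgeR adjusted p 0.0942), and USP42, listed with it, had -0.09.

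Of the 9 OTU genes tested, 0 passed in edgeR or DESeq2, and 0 had an unadjusted p under 0.05. OTUB1, which blocks E2 enzymes such as UBE2N and UBE2D as well as cutting lysine-48 chains, had 86.4 and 96.5 CPM in WT and 112, 116 and 92.1 CPM in MUT (log2 fold change 0.21, edgeR adjusted p 0.199). OTUB2 had 0.39 (0.141). OTUD7A, with the lowest fold change of the group at -0.66, had 3 to 13 counts a library and a standard error of 0.565. UCHL3 and UCHL5 had -0.21 and -0.07, with 0 of these 2 at an unadjusted p under 0.05 and 0 called by DESeq2.

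Outside the lists of roles, USP6NL was the single gene of 10 tested that passed. USP35 had the highest log2 fold change of all tested members, 0.89 (SE 0.373), from as few as 10 and 18 counts in the WT libraries against 45, 27 and 38 in the MUT libraries. At 4.99 and 5.89 CPM against 14.3, 7.11 and 9.75 CPM the libraries did not overlap, but it did not pass (edgeR adjusted p 0.0870). USP45, USP43 and USP25 had log2 fold changes of -0.35, -0.35 and -0.22, and USP40, USP38, USP31, USP18 and UBE2L5 lay between -0.11 and 0.18. Nearest to the threshold on the outside were USP45 (0.0540), USP39 (0.0567) and USP27X (0.0600), and nearest on the inside USP3 (0.0420) and USP24 (0.0355).

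**Figure D4:**
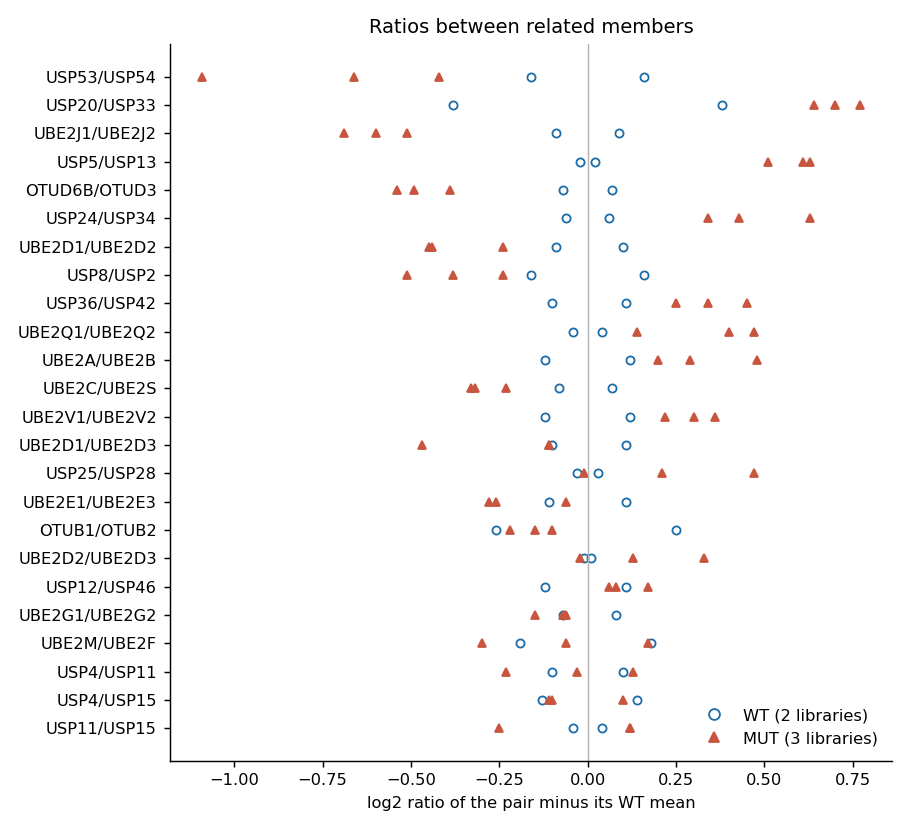
Log2 ratio of the CPM of related members, minus its mean over the WT libraries (x), for 24 pairs (rows), in each WT library (open circles) and MUT library (filled triangles), ordered by the size of the difference. For USP5/USP13 the MUT libraries lie apart from and above both WT libraries, with a difference of 0.58 between the group means, and at the bottom the ratios within the USP4, USP11 and USP15 trio overlap.

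Ratios within 24 pairs of related members were compared, to see where relatives shifted apart. In 14 of the pairs the WT and MUT libraries did not overlap, where 50.7% of all tested genes do not overlap singly. No pair passed after adjustment, since the exact two-sided permutation test cannot go below 0.1, and the lowest value after Benjamini-Hochberg adjustment over the 24 pairs was 0.218. UBE2J1 over UBE2J2 went from 1.41 and 1.23 in WT to 0.72, 0.81 and 0.63 in MUT, on the log2 scale. UBE2A over UBE2B went from -0.15 and -0.39 to 0.02, -0.07 and 0.21, and UBE2V1 over UBE2V2 from 0.33 and 0.09 to 0.51, 0.57 and 0.43. USP24 over USP34 went from -1.52 and -1.40 to -0.83, -1.03 and -1.12. UBE2C over UBE2S went from 2.21 and 2.06 to 1.82, 1.91 and 1.81. Each of these 5 ratios reached the exact test's smallest p of 0.1. UBE2G1 over UBE2G2 differed by -0.10 and UBE2D2 over UBE2D3 by 0.15, both with overlap.

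Gene span was set beside the changes as a description. DUB genes spanned a median of 64.9 kb and E2 genes of 35.7 kb, against 31.5 kb for all tested genes with a span. Across the 57 DUB genes, which share the same libraries, the Spearman correlation of span with log2 fold change was -0.22, across the 33 E2 genes -0.14 and across all 11857 tested genes with a span -0.06. With a trend on span removed from each library, 7 members were higher and 16 lower, and over all genes 1164 were higher and 1587 lower.

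The enzymes that load the E2s went both ways. Of 7 E1 genes tested 2 fell and 1 rose, at a median level of 156 CPM. Of all tested genes with a mean of at least 100 CPM 24.8% fell and 9.06% rose. UBA1, the main E1 of ubiquitin, had 196 and 212 CPM in WT and 300, 330 and 235 CPM in MUT, 1.41-fold higher (edgeR adjusted p 0.00356). UBA2, a subunit of the SUMO E1, had 238 and 231 CPM in WT and 147, 143 and 150 CPM in MUT, 1.60-fold lower (1.58e-05). NAE1, a subunit of the NEDD8 E1, had 162 and 214 CPM in WT and 121, 136 and 134 CPM in MUT, 1.46-fold lower (9.41e-04). UBA6, the second E1 of ubiquitin, had a log2 fold change of -0.21 and did not pass. The UBA1 call was lost without WT replicate 1 (0.0626) and that of NAE1 without WT replicate 2 (0.123), while that of UBA2 was kept in all 16 alternatives.

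Of the 10 genes that encode ubiquitin or ubiquitin-like proteins, 3 fell and 1 rose. Their median level was 129 CPM, and of all tested genes with a mean of at least 100 CPM 24.8% fell and 9.06% rose. UBB, a polyubiquitin gene, had a log2 fold change of -0.14 and did not pass. RPS27A, a fusion of ubiquitin to a small-subunit ribosomal protein, had 152 and 175 CPM in WT and 128, 118 and 103 CPM in MUT, 1.41-fold lower (edgeR adjusted p 0.00143, or 0.0860 without WT replicate 2). SUMO2, a small ubiquitin-like modifier, had 204 and 172 CPM in WT and 148, 141 and 130 CPM in MUT, 1.34-fold lower (0.00424, or 0.0838 without WT replicate 1). Every MUT library of both genes lay below both WT libraries, which held for 25.3% of all tested genes. Ubiquitin genes repeat near-identical units, so their counts are uncertain.

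Among 30 other deubiquitinases and proteases of ubiquitin-like proteins 2 rose and 2 fell, a share below the 22.9% of all genes. JOSD2, a Josephin deubiquitinase, had 6.49 and 11.4 CPM in WT and 18.8, 17.4 and 21.6 CPM in MUT, 2.05-fold higher (edgeR adjusted p 0.00635, or 0.0938 without WT replicate 1). Among 14 partners of deubiquitinases 2 rose and 2 fell (14.3% each), where 10.0% of all tested genes rose and 12.9% fell. ADRM1, the proteasome receptor that recruits UCHL5, rose 1.32-fold (0.00687, or 0.0962 without WT replicate 1), and ENY2, a subunit of the USP22 module, fell 1.39-fold (0.00109). ABRAXAS1 fell 1.52-fold (0.00201) and BABAM1 rose 1.30-fold (0.0152, or 0.0575 in DESeq2, 0.267 without WT replicate 2 and 0.0835 without MUT replicate 1), both subunits of the BRCA1-A complex. Of the 7 other E2-fold proteins 0 passed in edgeR or DESeq2 and 1 had an unadjusted p under 0.05, AKTIP at a log2 fold change of -0.47 (adjusted p 0.0549).

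Footprint counts were scaled between libraries, so these changes are relative to other genes, and they are not split into mRNA level and ribosomes per mRNA, since RNA-seq was not analysed here. In these bulk extracts a lower count in all cells and a loss in some of them cannot be told apart, nor can the effect of the eIF6 change and other differences between the edited clones and the unedited cells.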

How the data were processed

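Footprints were measured in 5 libraries of HCT116 cells (2 WT, 3 MUT). The deposited values are raw counts per gene, whole numbers not normalized by the authors. Per the submitters' processing notes, the tools were STAR 2.5.2b, FastQC 0.12.1, DESeq2 1.42.0 and cutadapt 4.6, on hg38. The tool, annotation, part of the gene, multi-mapping and strand setting behind the counts: not given in the sources used here. Per the labels' protocols, extracts were digested with MNase, which cuts preferentially next to A and T.

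Columns were matched to samples by the codes in the table's header. The counts went into edgeR 4.0.16 (R 4.3.3): filterByExpr (minimum count 10, minimum total count 15), TMM scaling (factors 0.959 to 1.03) and the quasi-likelihood F test with 3 residual degrees of freedom over 11991 genes, with Benjamini-Hochberg adjustment over all of them and a threshold of 0.05. CPM uses TMM-scaled library sizes. No 2 of the 5 libraries agreed within counting error (chi-square per gene 1.90 to 8.01 over 10 pairs). The smallest library limits precision most. All 101 members matched RefSeq's table for GRCh38.p14 by symbol.

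The members, gene lists and pairs were chosen with earlier results of these data known. Named were members past the threshold, the lowest p-values of lists without a call (at most 2 each), the 5 highest CPM and list genes past the threshold. Members named beyond these were picked with their values in view. Simulated counts with known changes were used to check the fit. With 1 dispersion for all genes, the fit called 14.0% of 1.25-fold, 58.0% of 1.5-fold and 92.0% of 2-fold changes. A gene that did not pass may therefore still have changed by a small fold.

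Alternatives were scaling by RLE, by upper quartile or by library size alone, DESeq2, limma-voom (limma 3.58.1), robust dispersion, no filter and a strict filter (30 counts in 2 libraries and a mean of 10 CPM), each library left out, a replicate block, thinning to the smallest library and, added after seeing the data, removal of a trend on gene span. A planned trend on coding length was not run. Values of some genes that the naming rule covers are not reported here.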

Additional observations from a re-analysis of the deposited data

How the results depend on the processing

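Of the genes named by rule, those past the threshold kept their direction in the 16 alternatives. UCHL5, which did not pass, went from a log2 fold change of -0.07 to 0.12 without WT replicate 2, past the threshold in neither. Of the 20 called members, 4 kept their calls in all of them (UBE2H, UBE2V2, USP53 and USP5). The 5 higher members numbered 9 with upper-quartile scaling, 10 with library size only and 2 in DESeq2, and the 15 lower ones 9 with library size only. E2 genes called higher, 1 by default, were 2 with library size only. DUB genes called higher, 4 by default, were 8 with upper-quartile scaling, 8 with library size only and 1 in DESeq2, and those called lower, 6 by default, were 3 with library size only and 2 in DESeq2. Leaving out each library in turn gave 1 to 8 members higher and 6 to 13 lower, 0 to 1 E2 genes higher and 5 to 9 lower, and 1 to 7 DUB genes higher and 1 to 4 lower. Where 1 WT library was left, it was assumed to vary like the MUT libraries. Calls over all genes also went down without MUT replicate 1, from 1203 higher and 1544 lower to 721 and 908.

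The labels share replicate numbers 1 and 2 between groups but do not say that they pair samples. Deviations of same-numbered libraries correlated at 0.08 and 0.15, and those of differently numbered libraries at -0.15 to 0.06. With 2 WT libraries the deviations of 1 mirror those of the other, so these values are not independent. With the replicate block 10 members were higher (2 E2 and 8 DUB genes) and 19 lower (9 E2 and 10 DUB genes). Over all genes 1529 were higher and 1909 lower, 28.7% of those tested against 22.9% in the main fit. Library size only moved the median of all genes to 0.07 and upper-quartile scaling to 0.05. The cause of these shifts was not tested. The smallest library, WT replicate 1 with 2095217 counts, limits the depth most. The gene-span trend was chosen after seeing the data, and the planned coding-length trend was not run because no protein table was used here.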

Other observations

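Genes of SUMO conjugation were picked out here after their values were seen. UBA2, the catalytic subunit of the SUMO E1, was 1.60-fold lower (edgeR adjusted p 1.58e-05), and its partner SAE1 had a log2 fold change of -0.19 that did not pass (0.150). SUMO2 was 1.34-fold lower (0.00424), while SUMO3 had a log2 fold change of 0.06 and did not pass.

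The SUMO proteases did not share a direction. SENP3, a nucleolar protease that acts in ribosome assembly, had 62.4 and 64.1 CPM in WT and 101, 95.3 and 115 CPM in MUT, 1.64-fold higher (edgeR adjusted p 1.97e-04), with its call kept in all 16 alternatives. USPL1, a SUMO protease of Cajal bodies, was 1.46-fold lower (0.00388, or 0.159 without WT replicate 2). SENP2 was 1.27-fold lower (0.0300) and lost its call in 7 of the 16 alternatives, among them DESeq2 (0.0995) and those without WT replicate 1 (0.123), WT replicate 2 (0.180), MUT replicate 1 (0.0649) or MUT replicate 2 (0.181). SENP1, SENP5, SENP6 and SENP7 had log2 fold changes between -0.10 and 0.12, and none of these 4 passed in edgeR.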
